A study of Rattus norvegicus with 20 samples.

Results

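The aryl hydrocarbon receptor, AHR, and the genes tied most closely to it were followed by their mRNA levels in rat liver. The genes taken, by symbol, were 8: Ahr itself, its partner Arnt, the feedback repressors Ahrr and Tiparp, and the target genes Cyp1a1, Cyp1a2, Cyp1b1 and Nqo1. Of these, 7 had a ProbeSet on the array, the set of short probes that reads 1 transcript, and Ahr had a second, which gave 8 of the 15923 ProbeSets. Ahrr had none under its symbol and has no value here. Each array was hybridised with liver RNA of 1 male rat, and there were 4 rats in each of 5 groups. Line-A and Line-C descend from crosses of L-E and H/W rats. H/W (Han/Wistar, Kuopio) is a random-bred closed colony, L-E (Long-Evans, Turku/AB) is in-bred and S-D (Sprague-Dawley) is out-bred. Line-A and H/W carry a variant AHR, and Line-C, L-E and S-D carry the wild-type receptor. All rats were 10 to 12 weeks old and had been given corn oil by gavage 19 hours before, so every level is a basal one, without any AHR ligand of the study. The S-D labels call these rats control, and the vehicle is given in their treatment notes.

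AHR is a ligand-activated transcription factor that waits in the cytoplasm in a complex with the chaperone HSP90 and its co-chaperone p23. When a ligand such as dioxin binds, AHR moves to the nucleus, pairs with ARNT and binds short DNA sites known as xenobiotic response elements. In liver it is best known for inducing P450 enzymes of the Cyp1 family and the quinone reductase Nqo1, and it switches on its own repressors Ahrr and Tiparp. Nqo1 also answers to NRF2, the regulator of the antioxidant response. The variant receptor of H/W rats is altered in its transactivation domain, and rats that carry it are known for their resistance to dioxin.

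Promoters of the 3 genes that reached the expression limit are shown because their mRNA could be compared between groups. They run from 250 bases before to 50 bases after the annotated start, on the strand of the gene, from RefSeq (build GRCr8, a reference genome and not the sequence of these strains). Capitals mark the core of the xenobiotic response element, GCGTG or its reverse complement CACGC. A core of an antioxidant response element, TGACNNNGC on either strand, was searched as well.
Nqo1: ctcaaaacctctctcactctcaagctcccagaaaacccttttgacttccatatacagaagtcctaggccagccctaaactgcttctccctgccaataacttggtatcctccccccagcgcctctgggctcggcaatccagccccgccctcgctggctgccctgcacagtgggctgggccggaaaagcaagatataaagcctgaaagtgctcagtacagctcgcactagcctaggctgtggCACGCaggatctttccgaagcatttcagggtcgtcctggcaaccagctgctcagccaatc
Cyp1a2: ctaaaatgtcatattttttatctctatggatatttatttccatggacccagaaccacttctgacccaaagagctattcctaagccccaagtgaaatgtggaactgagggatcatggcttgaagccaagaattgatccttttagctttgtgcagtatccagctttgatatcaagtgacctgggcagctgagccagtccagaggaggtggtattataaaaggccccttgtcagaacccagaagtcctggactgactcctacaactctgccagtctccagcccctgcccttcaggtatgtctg
Tiparp: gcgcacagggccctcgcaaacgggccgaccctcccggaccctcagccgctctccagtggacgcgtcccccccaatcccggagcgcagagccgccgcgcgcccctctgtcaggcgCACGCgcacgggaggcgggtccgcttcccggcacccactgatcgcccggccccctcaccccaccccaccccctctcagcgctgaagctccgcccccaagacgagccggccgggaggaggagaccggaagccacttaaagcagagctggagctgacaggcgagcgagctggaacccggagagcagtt
The Nqo1 window lies on chromosome 19 (chr19:52220218-52220517, minus strand) and holds 1 xenobiotic response element core, beginning at -10 from the start. The Cyp1a2 window (chr8:66978100-66978399, minus strand) holds 0, and the Tiparp window (chr2:152063519-152063818, plus strand) holds 1, at -136. None of the 3 holds the antioxidant core within these bases. Of all 33469 promoters of this length, 29.7% hold the first core and 12.1% the second. Promoters were found for 7 of the 8 genes, and in the windows not printed Ahrr held 3 xenobiotic response element cores, Cyp1b1 2, Arnt 1 and Ahr 0, while Arnt alone held the antioxidant core, at 2 places. A match is a run of letters and was not tested as a binding site.

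The values are log2 signals that the authors made with GC-RMA, and a mean of 4 is the limit under which the study treats a ProbeSet as unexpressed. By this limit 3 of the 8 ProbeSets were expressed, those of Nqo1, Cyp1a2 and Tiparp. The other 5, both of Ahr and those of Arnt, Cyp1a1 and Cyp1b1, had means between 2.88 and 3.58. A signal under the limit cannot be told from background, so no fold is given between 2 groups that both lie under it. The groups were compared with limma, a linear model with moderated variances, fitted to all ProbeSets with 1 mean per group. Differences are log2, two-sided, and adjusted by Benjamini-Hochberg over all ProbeSets. The moderated F-test over the 5 groups, at 0.1% FDR (false-discovery rate), called 3 of the 8 ProbeSets, Nqo1, Cyp1a2 and Arnt, where 4.60% of all ProbeSets were called. Of the 80 combinations of ProbeSet and pair of groups, 14 passed 1% FDR, against 3.51% over all ProbeSets. The genes were chosen with earlier results of these data known, so these counts beside the shares are no test of the set. Arnt gave 4 of the 14 pair calls and lay under the limit in all 20 rats.

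The calls were spread unevenly over the pairs. The pairs Line-A minus S-D and L-E minus S-D had 3 of 8 called each (6.59% and 5.07% of all ProbeSets). Line-C minus S-D had 2 (4.30%), as did H/W minus L-E (1.38%). Line-A minus H/W (2.84%), Line-A minus L-E (5.66%), H/W minus S-D (3.27%) and Line-C minus L-E (3.71%) had 1 each. By limma, 0 were called between Line-A and Line-C (0.534%), where Tiparp alone had an unadjusted p under 0.05, and 0 between H/W and Line-C (1.70%), where Nqo1 alone did. The same 4 rats of a group enter all of its pairs, so calls that share a group are not separate evidence. The ratio W/T of the study, the variance within strains as a share of the total, was 0.137 for Cyp1a2, 0.238 for Nqo1, 0.242 for Arnt, 0.413 for Tiparp, 0.554 for Cyp1b1, 0.663 and 0.978 for the ProbeSets of Ahr and 1 for Cyp1a1.

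The arrays limit some of these comparisons. S-D had a scan day, a chip lot and an operator of its own. Both lines shared another scan day and lot, and the H/W and L-E arrays were spread over 3 further days. Scan day and group therefore cannot be told apart between S-D and the rest or between the lines and their parents. It can be set aside between Line-A and Line-C, scanned together, and in part between H/W and L-E. The median signal per array was 3.47 to 3.69. The GAPDH probes at the 3' end exceeded those at the 5' end, a gauge of RNA integrity, by 0.17 to 0.81. H/W replicate 3 was the highest, and the S-D rats came next at 0.54 to 0.58. All other rats had 0.50 or less. The part of RNA integrity in the differences from S-D was not tested. Whether replicate rats shared a litter or cage is not stated.

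**Figure D1:**
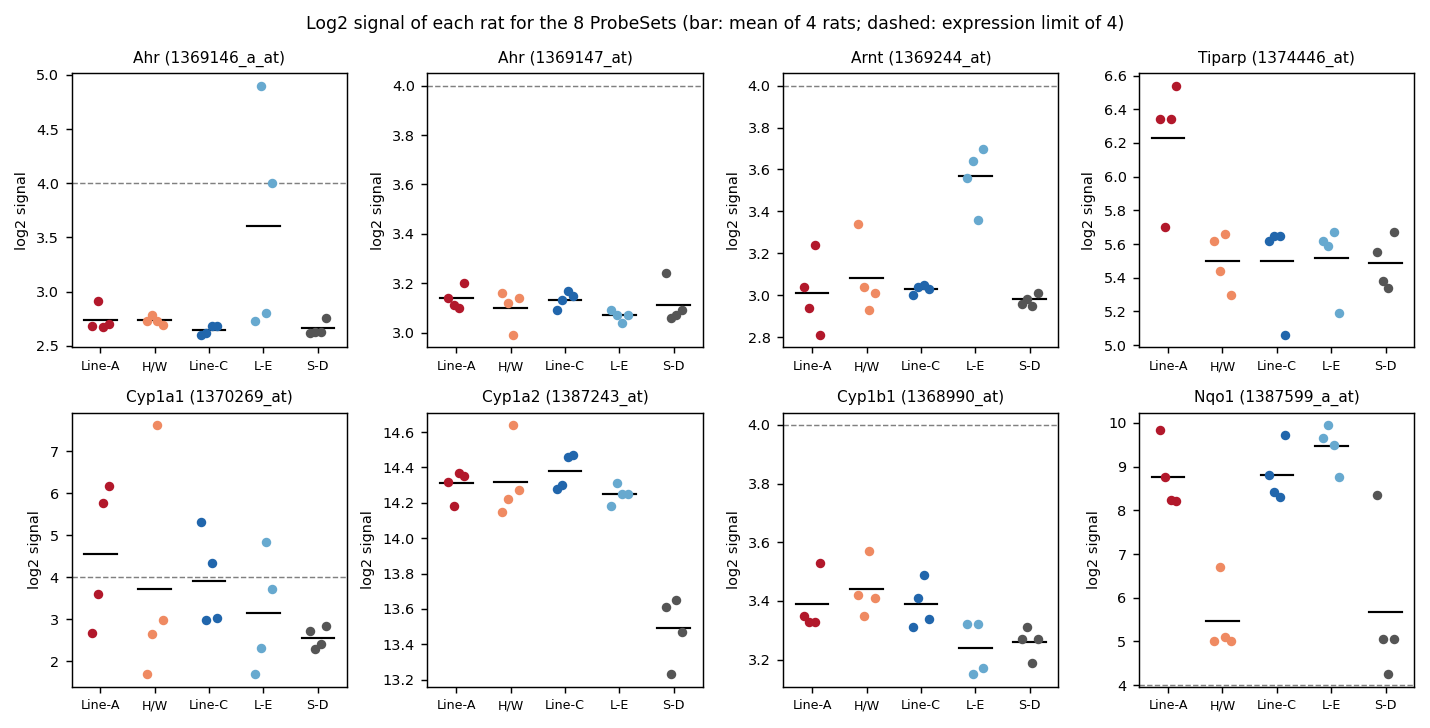
Log2 signal of each rat (points) and group mean (bars, 4 rats) for the 8 ProbeSets, with the expression limit of 4 dashed where it lies in the panel. Cyp1a2 is lower in all S-D rats, Nqo1 is lower in H/W and in 3 of 4 S-D rats, Tiparp is highest in Line-A, and Cyp1a1 spreads widely within every group but S-D.

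The receptor itself lay near or under the limit in most rats. The ProbeSet 1369146_a_at of Ahr read 2.67 to 2.91 in Line-A, 2.69 to 2.78 in H/W, 2.6 to 2.68 in Line-C and 2.62 to 2.76 in S-D. In L-E it read 2.73, 4.90, 2.80 and 4.0 in replicates 1 to 4. Only L-E replicates 2 and 4 reached the limit, and the other 18 rats lay in a narrow band. The groups did not differ by the F-test (adjusted p = 0.0803), and the lowest adjusted p of a pair was 0.0506. The second ProbeSet, 1369147_at, read 2.99 to 3.24 over all 20 rats, with group means from 3.07 to 3.14 (adjusted p = 0.441), and did not show the signal of those L-E rats. Both ProbeSets left the level of Ahr mRNA unmeasured in most rats.

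Arnt (1369244_at), the partner that AHR needs to bind DNA, was under the limit in all 20 rats. Its signal was 3.04, 2.94, 3.24 and 2.81 in Line-A, 3.34, 3.04, 2.93 and 3.01 in H/W, 3.0, 3.04, 3.05 and 3.03 in Line-C, 3.56, 3.64, 3.36 and 3.70 in L-E, and 2.96, 2.98, 2.95 and 3.01 in S-D. Every L-E rat lay above every other rat, though H/W replicate 1 (3.34) came close to L-E replicate 3 (3.36). The F-test called it (adjusted p = 7.53e-04). Of the pairs only the 4 with L-E were called. All of these signals are under the limit, where they do not measure Arnt mRNA, so no size of difference is given. The H/W minus L-E call was lost without H/W replicate 2, 3 or 4 or L-E replicate 1, 2 or 4, with an adjusted p of up to 0.0238 by limma. It was also lost with a block for replicate number (0.0159). With scan day as a fixed block over the H/W and L-E arrays its adjusted p was 0.246, and on scan day 2 alone 0.326. The call of Line-C minus L-E was lost with scan day as a random block (0.0178), and that of Line-A minus L-E in a fit of these 2 groups only (0.0249).

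Tiparp (1374446_at), a member of the poly-ADP-ribose polymerase family that represses AHR, was the repressor with a measurable level. Its signal was 6.34, 5.70, 6.34 and 6.54 in Line-A, 5.62, 5.44, 5.66 and 5.30 in H/W, 5.62, 5.65, 5.65 and 5.06 in Line-C, 5.62, 5.59, 5.67 and 5.19 in L-E, and 5.55, 5.38, 5.34 and 5.67 in S-D. All 4 Line-A rats lay above all other rats, but Line-A replicate 2 by little. Line-A averaged 6.23 ± 0.36 (SD, n = 4), and the other groups averaged 5.49 to 5.52. Line-A was higher than S-D by 0.74 (SE 0.17, adjusted p = 0.00795), a fold of 1.67. The differences of Line-A from Line-C (0.73, adjusted p = 0.043), H/W (0.72, 0.0166) and L-E (0.71, 0.0117) were as large and missed 1% FDR. The F-test gave an adjusted p of 0.0122. The call against S-D was lost in 14 of the 20 fits that left out 1 array, all but those without Line-A replicate 2, H/W replicate 3 or 4, Line-C replicate 3 or 4 or L-E replicate 4, with adjusted p from 8.72e-04 without Line-A replicate 2 to 0.0319 without Line-A replicate 4. With scan day as a random block it had an adjusted p of 0.083. Markers of Kupffer cells, the macrophages of the liver, were lower in Line-A. The mean of their 7 expressed ProbeSets was 7.64 in Line-A (7.55 to 7.70), 8.04 in H/W (7.82 to 8.16), 8.36 in Line-C (8.16 to 8.46), 8.44 in L-E (8.10 to 8.76) and 8.60 in S-D (8.26 to 8.82), so that no other rat was as low as the Line-A rats. Of the 7, 6 were called lower in Line-A than in S-D (12.8% of expressed ProbeSets in either direction), with a median difference of -0.83 against 0.03 over all expressed ProbeSets. Fewer of the 7 were called lower in Line-A in the other pairs. By limma these were 4 against L-E (5.66% of all ProbeSets), 1 against Line-C (0.534%) and 0 against H/W (2.84%). These shares are over all ProbeSets and run lower than over expressed ones. For Line-A minus S-D they were 6.59% and 12.8%. The part of these cells in the Tiparp signal was not tested.

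Line-A and H/W share the variant receptor, but the H/W signal of Tiparp did not follow that of Line-A. In the study's genetic model each line is midway between its parents, and carriers of the variant receptor have a term of their own. There the Ahr coefficient of Tiparp was 0.73 (SE 0.20, unadjusted p = 0.00231, adjusted p = 0.166). With equal groups, as in the fit of all arrays, this coefficient equals the difference Line-A minus Line-C, also 0.73. The H/W level does not enter the estimate, so it is not a separate result from that pair. By limma, 0 of the 8 ProbeSets passed 5% FDR for this term, 1 of them with an unadjusted p under 0.05, while 0.659% of all ProbeSets passed. The coefficients of Nqo1 (-0.05, SE 0.81) and Cyp1a2 (-0.07, SE 0.10) were smaller than their errors. With scan day as a random block the adjusted p of the Tiparp coefficient was 0.0454, and without Line-A replicate 4 it was 0.46.

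**Figure D2:**
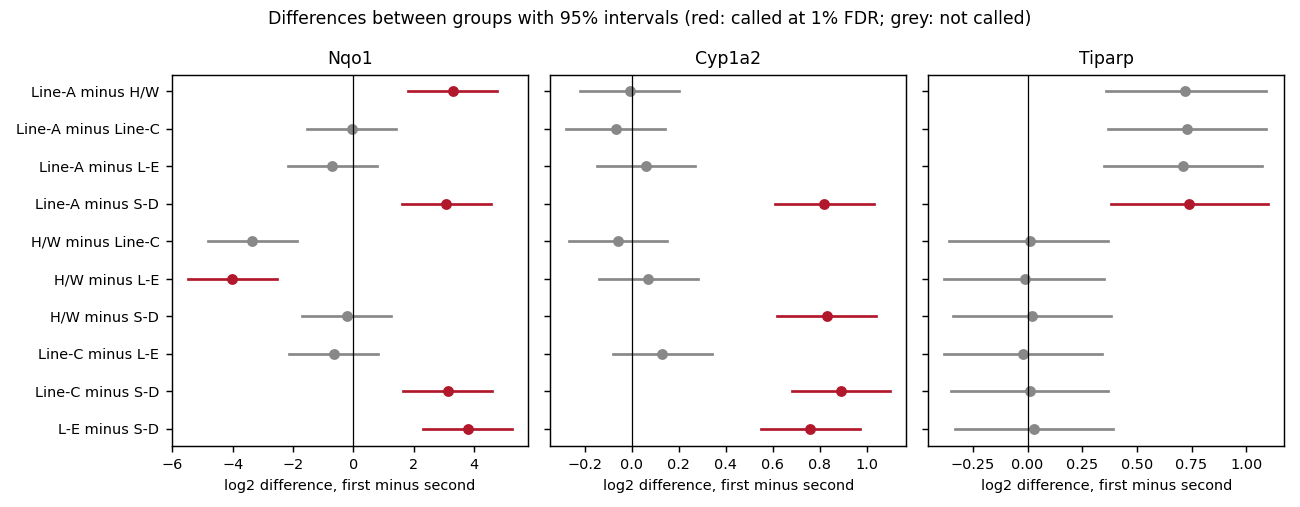
Log2 difference, first group minus second, with its 95% interval for the 10 pairs of groups (rows) and the 3 expressed genes (panels), red where the pair was called at 1% FDR. Calls of Cyp1a2 all involve S-D, the 1 call of Tiparp is Line-A minus S-D, and those of Nqo1 set L-E and the lines against H/W or S-D, with H/W minus Line-C just outside at an adjusted p of 0.0104.

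Nqo1 (1387599_a_at), the reductase that detoxifies quinones, had the widest range of the genes that passed the F-test. Its signal was 9.83, 8.77, 8.24 and 8.21 in Line-A, 5.02, 6.71, 5.11 and 5.0 in H/W, 8.80, 8.41, 8.30 and 9.73 in Line-C, 9.66, 9.95, 9.49 and 8.76 in L-E, and 8.35, 5.05, 4.25 and 5.05 in S-D. All rats of Line-A, Line-C and L-E read above 8, and all rats of H/W and S-D read under 7 but for S-D replicate 1. Group means were 8.76 ± 0.76 in Line-A, 5.46 ± 0.83 in H/W, 8.81 ± 0.65 in Line-C, 9.47 ± 0.51 in L-E and 5.67 ± 1.82 in S-D (SD, n = 4 each). Ordered from the top, L-E, Line-C and Line-A showed no called difference among themselves, nor did S-D and H/W at the bottom, and the step lay between Line-A and S-D. The variant receptor was present in both a high group and a low one, and so was the wild-type receptor.

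H/W was lower than L-E by 4.01 on the log2 scale, a fold of 16.1, and the groups did not overlap (log2 difference -4.01, SE 0.70, adjusted p = 0.00336). H/W and L-E shared 2 scan days. In the one with 2 H/W and 3 L-E arrays, H/W averaged 5.91 and L-E 9.40, a difference of -3.49 (limma adjusted p = 0.243). In the other, with 1 array of each group, H/W read 5.02 and L-E 9.66. With scan day as a fixed block over these 8 arrays the difference was -3.83 (adjusted p = 0.0737), so the size held and the call did not. The call was also lost without H/W replicate 1 or 4 or L-E replicate 1, 2 or 3, with an adjusted p of up to 0.0132. L-E was higher than S-D by 3.79 (adjusted p = 0.00187), a fold of 13.8, and without S-D replicate 1 by 4.68 (adjusted p = 1.82e-05). This pair kept its call in each of the 20 fits that left out 1 array. With scan day as a random block its adjusted p was 0.0231.

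Both lines were on the L-E side. Line-A was higher than H/W by 3.30 (adjusted p = 0.00813), a fold of 9.86, with no overlap. H/W minus Line-C was -3.35 (adjusted p = 0.0104), which missed the threshold although no H/W rat overlapped a Line-C rat. Line-A and Line-C were higher than S-D by 3.09 and 3.14 (adjusted p = 0.00693 and 0.00847), and S-D replicate 1 overlapped both lines. Without that rat these differences were 3.98 and 4.03 (adjusted p = 8.39e-05 and 8.09e-05). The call of Line-A against H/W was lost in 15 of the 20 fits that left out 1 array, with an adjusted p of up to 0.026, and stood without H/W replicate 2, Line-C replicate 4, L-E replicate 4 or S-D replicate 1 or 3. The call of Line-A against S-D was lost without any 1 Line-A array or S-D replicate 2, 3 or 4 (up to 0.0272). That of Line-C against S-D was lost in 16 fits (up to 0.0321) and stood without Line-A replicate 1, H/W replicate 2 or 3 or S-D replicate 1. With scan day as a random block these adjusted p were 0.0545, 0.0779 and 0.0993. Line-A minus Line-C, both from 1 scan day, was -0.05 with a 95% interval of -1.52 to 1.42.

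The position of each line between its parents was 0.82 of the way from H/W to L-E for Line-A and 0.84 for Line-C. H/W minus L-E and Line-A minus Line-C both set carriers of the variant receptor against carriers of the wild type, though the parent strains also differ elsewhere in the genome. The difference between them was tested as an interaction. For Nqo1 it was -3.96 (SE 0.98, adjusted p = 0.0488), past 5% FDR, as were 2.01% of all ProbeSets, and it was the only 1 of the 8 ProbeSets past it. This call lay at the threshold, with an adjusted p of 0.0534 with further quantile normalization, 0.0552 with equal array medians and 0.0516 with scan day as a random block, and it was lost in 15 of the 20 fits that left out 1 array (adjusted p of up to 0.0952), all but those without H/W replicate 2, Line-C replicate 4, L-E replicate 4 or S-D replicate 1 or 3.

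Cyp1a2 (1387243_at), the P450 of the family that liver makes without an inducer and that oxidises caffeine and arylamines, was at 14.32, 14.18, 14.37 and 14.35 in Line-A, 14.15, 14.22, 14.64 and 14.27 in H/W, 14.28, 14.30, 14.46 and 14.47 in Line-C, 14.18, 14.31, 14.25 and 14.25 in L-E, and 13.61, 13.23, 13.65 and 13.47 in S-D. Every S-D rat lay below every other rat, and the other 16 rats lay within 0.49 of each other. The other groups averaged 14.25 to 14.38, and S-D 13.49 ± 0.19 (SD, n = 4). Line-A was higher than S-D by 0.82 (adjusted p = 4.09e-05), H/W by 0.83 (5.31e-05), Line-C by 0.89 (2.12e-05) and L-E by 0.76 (8.97e-05), folds of 1.69 to 1.85. These 4 calls kept their side of 1% FDR without each array in turn and with scan day as a random block, where their adjusted p was 7.82e-04 to 0.00181. In a fit of H/W and S-D alone that pair had an adjusted p of 0.0188. That block models the days as drawn from 1 distribution and does not separate S-D from its own day, chip lot and operator. The S-D rats also had larger GAPDH gaps than all other rats but H/W replicate 3. Among the other 6 pairs the largest difference was 0.13, for Line-C minus L-E (95% interval -0.08 to 0.34).

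Several marker lists moved with S-D. Hepatocyte markers (7 ProbeSets) were level, with means of 14.85 to 15.05 per rat. The mean of the 8 expressed ProbeSets of stellate cells and fibroblasts was 5.26 to 5.68 in the other groups and 6.54 in S-D (5.95 to 6.87). Against S-D, 3 of the 8 were called lower in Line-A (12.8% of expressed ProbeSets, either direction), the collagens Col1a1, Col1a2 and Col3a1. The same 3 were called lower in H/W and Line-C (3.27% and 4.30% of all ProbeSets), and with Lrat 4 in L-E (9.91% of expressed ones). Pdgfrb did not stand out, at 4.43 in S-D and 4.40 in H/W, nor did Acta2, at 5.44 in S-D and 5.40 in L-E. The 2 expressed ProbeSets of endothelium averaged 8.56 to 8.74 in the other groups and 9.21 in S-D, and the 1 of cholangiocytes 5.26 to 5.82 and 6.44 in S-D. The 5 pericentral ProbeSets, of the hepatocytes around the central vein where Cyp1a2 is known to be richest, averaged 11.74 in Line-A, 11.47 in H/W, 11.77 in Line-C, 12.29 in L-E and 11.61 in S-D. Of them, 3 were called lower in H/W than in L-E (2.72% of expressed ProbeSets, either direction) and 3 higher in L-E than in S-D (9.91%, with a median difference of 0.72). The mean of the Kupffer cell markers was highest in S-D, as given with Tiparp, but not every marker was. Between Line-C and S-D 4 of the 7 were called (4.30% of all ProbeSets, not of the expressed ones alone), 3 of them lower in Line-C. The other, Cd14, was at 10.17 in Line-C and 8.68 in S-D (difference 1.49, limma adjusted p = 0.0052). The part of cell composition in the values of Cyp1a2, Nqo1 and Tiparp was not tested, and in whole liver fewer cells of a type and less RNA per cell cannot be told apart.

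Cyp1a1 (1370269_at), the most inducible P450 of the family and nearly silent in liver without a ligand, differed far more among rats of 1 group than between groups. Its signal was 2.68, 3.61, 5.76 and 6.17 in Line-A, 1.69, 2.64, 7.63 and 2.98 in H/W, 5.31, 2.98, 4.33 and 3.04 in Line-C, 1.70, 2.32, 4.85 and 3.72 in L-E, and 2.72, 2.29, 2.40 and 2.84 in S-D. In 6 rats it reached the limit of 4, 2 each in Line-A and Line-C and 1 each in H/W and L-E, and the S-D rats stayed at 2.84 or less. The SD within groups was 1.62, W/T was 1 and the F-test had an adjusted p of 0.496. The 95% interval of Line-A minus S-D, the widest difference of means at 1.99, was -0.34 to 4.32. The highest rat of all, H/W replicate 3, was also the one with the largest GAPDH gap between 3' and 5' ends, 0.81, and the other H/W rats read up to 2.98. The part of RNA integrity in that value was not tested.

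The rat with the most Cyp1a1 in its group was also the one with the most Tiparp in 4 of the 5 groups, Line-A replicate 4, H/W replicate 3, L-E replicate 3 and S-D replicate 4. The shared rats of H/W and L-E led by little in Tiparp, with 5.66 against 5.62 in H/W replicate 1 and 5.67 against 5.62 in L-E replicate 1. In Line-C the highest Cyp1a1 was in replicate 1 and the highest Tiparp in replicate 3, with Tiparp at 5.62 and 5.65 in these rats. For Cyp1a2 the highest rat was shared in 1 group, H/W, and the lowest in 3. For Nqo1 neither the highest nor the lowest rat was shared with Cyp1a1 in any group. The lowest rat was shared between Tiparp and Cyp1a1 in 0 of the 5 groups, and the shared highest rat of S-D ranks Cyp1a1 signals of 2.29 to 2.84, all under the limit. These are counts over 5 groups of 4 rats, with no test.

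**Figure D3:**
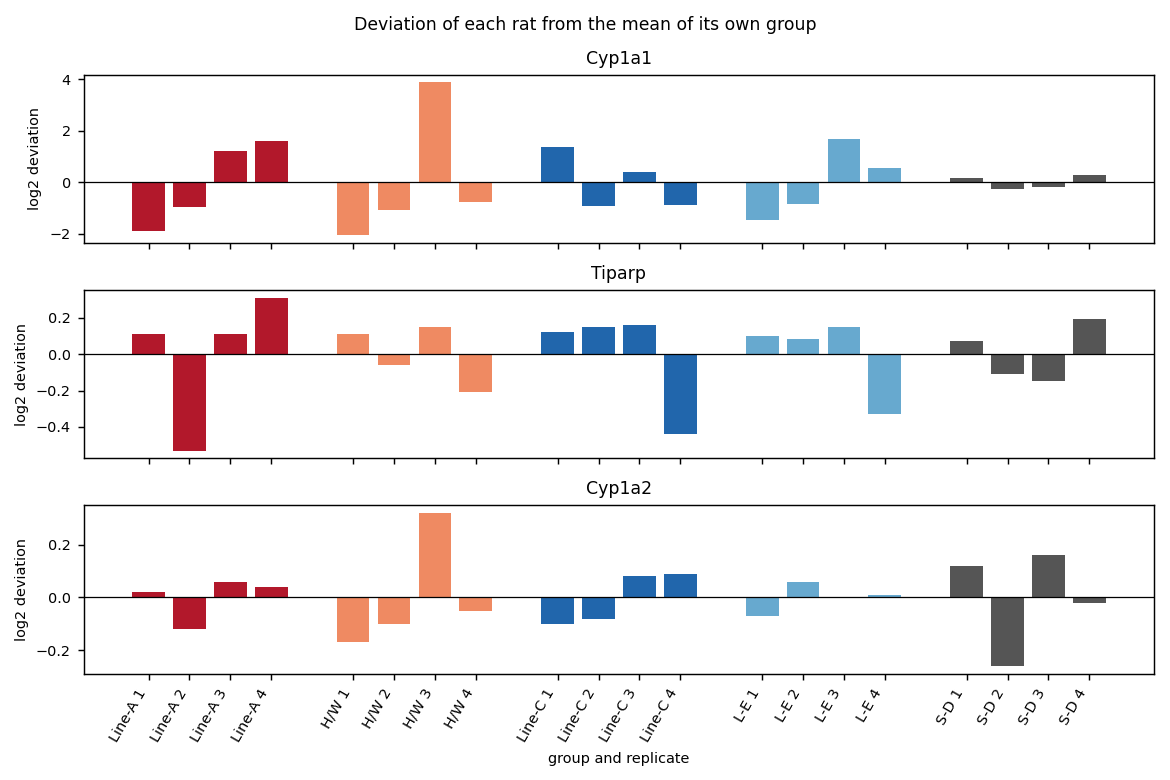
Deviation of each rat (bars) from its group mean in log2 units for Cyp1a1, Tiparp and Cyp1a2, with a different vertical scale in each panel. H/W replicate 3 stands highest in its group in all 3 panels, and the bars of Cyp1a1 are the longest.

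Cyp1b1 (1368990_at), the member of the family found mostly outside the liver, was under the limit in all 20 rats, from 3.15 to 3.57. Group means were 3.39 ± 0.10 in Line-A, 3.44 ± 0.09 in H/W, 3.39 ± 0.08 in Line-C, 3.24 ± 0.09 in L-E and 3.26 ± 0.05 in S-D (SD, n = 4 each). No pair was called, the lowest adjusted p being 0.0633, and the F-test gave 0.047.

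Likeness to the 3 expressed genes was measured as the root mean square difference of the 5 centred group means, among 2712 expressed single-gene ProbeSets past the F-test at 5% FDR. The measure is not scaled, so it grows with the range of the group means, 4.01 for Nqo1, 0.89 for Cyp1a2 and 0.74 for Tiparp, and is not compared between these genes. The nearest to Nqo1 was Me1, the malic enzyme that makes NADPH, at 0.85 by 1 of its ProbeSets. Its means there were 7.33 ± 1.33 in Line-A, 5.24 ± 1.22 in H/W, 6.24 ± 0.54 in Line-C, 7.17 ± 0.97 in L-E and 4.55 ± 0.52 in S-D. The other Me1 ProbeSet was not among the 3 nearest. It was at 7.28 ± 0.82 in Line-A, 6.61 ± 0.63 in H/W, 6.76 ± 0.34 in Line-C, 8.00 ± 0.69 in L-E and 6.33 ± 0.29 in S-D. By that ProbeSet Line-C lay nearer to H/W than to L-E, unlike in Nqo1. Me1 also belongs to the list of genes around NRF2 described below. Inmt, an N-methyltransferase, followed at 1.0 and Wipi2, of autophagy, at 1.09. The nearest to Cyp1a2 were Rhoa, a small GTPase, at 0.04, and Apol3l1 and Xdh at 0.05. Xdh, xanthine dehydrogenase of purine breakdown, was at 10.70 to 10.84 in the other groups and 10.07 ± 0.22 in S-D. For Tiparp they were Tmx4 at 0.05 and Fam98a and Fat1 at 0.06, Tmx4 being at 7.35 ± 0.50 in Line-A and 6.49 to 6.62 in the others. The ProbeSets were picked for this likeness, so it carries no test.

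**Figure D4:**
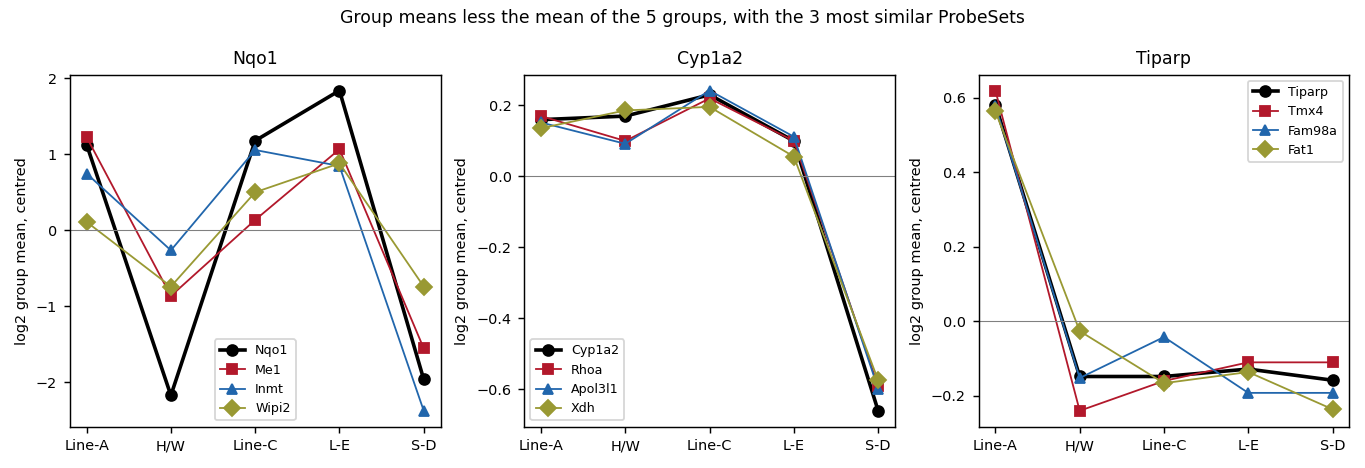
Log2 group means less the mean of the 5 groups for Nqo1, Cyp1a2 and Tiparp (black) and the 3 ProbeSets most like each (coloured). The root mean square differences are 0.85 to 1.09 for Nqo1, and 0.04 to 0.06 for Cyp1a2 and Tiparp, whose means span a smaller range.

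By the current rat annotation Nqo1 lies on chromosome 19, Cyp1a1 and Cyp1a2 on 8, Ahr and Cyp1b1 on 6, Arnt and Tiparp on 2 and Ahrr on 1. Of the 10 genes nearest to Nqo1 that have a ProbeSet, 5 on each side, 7 were expressed. Only 1, Cyb5b, passed the F-test, as did 9.47% of all expressed ProbeSets. Cyb5b, the outer mitochondrial membrane form of cytochrome b5, moved against Nqo1 by the ProbeSet 1371795_at, at 9.41 ± 0.39 in H/W and 8.48 ± 0.29 in L-E (difference 0.93, adjusted p = 0.00431). Its other ProbeSet, 1370005_at, was at 8.68 ± 0.34 and 9.21 ± 0.27 in the same groups (-0.53, adjusted p = 0.098), so the ProbeSets disagree. Nfat5, next to Nqo1 on that side, differed by -0.44 (adjusted p = 0.131), and Nob1, next on the other, by -0.04 (0.796). Beside Cyp1b1, Atl2, which shapes the endoplasmic reticulum, was lower in H/W than in L-E at 10.16 ± 0.09 and 10.92 ± 0.12 (difference -0.76, adjusted p = 1.06e-04). Galm, the galactose mutarotase, passed the F-test with -0.42 for this pair (adjusted p = 0.0112). Of the 10 neighbours each of Ahr, Arnt, Ahrr, Tiparp and Cyp1a2, 0 passed limma's F-test at 0.1% FDR, where 4.60% of all ProbeSets did. Of these 50, 20 had an unadjusted p under 0.05. The share of all ProbeSets at that level is not given here, so this count is not read as a trait of the neighbours. Beside Cyp1a1 the only neighbour that passed was Cyp1a2 itself.

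**Figure D5:**
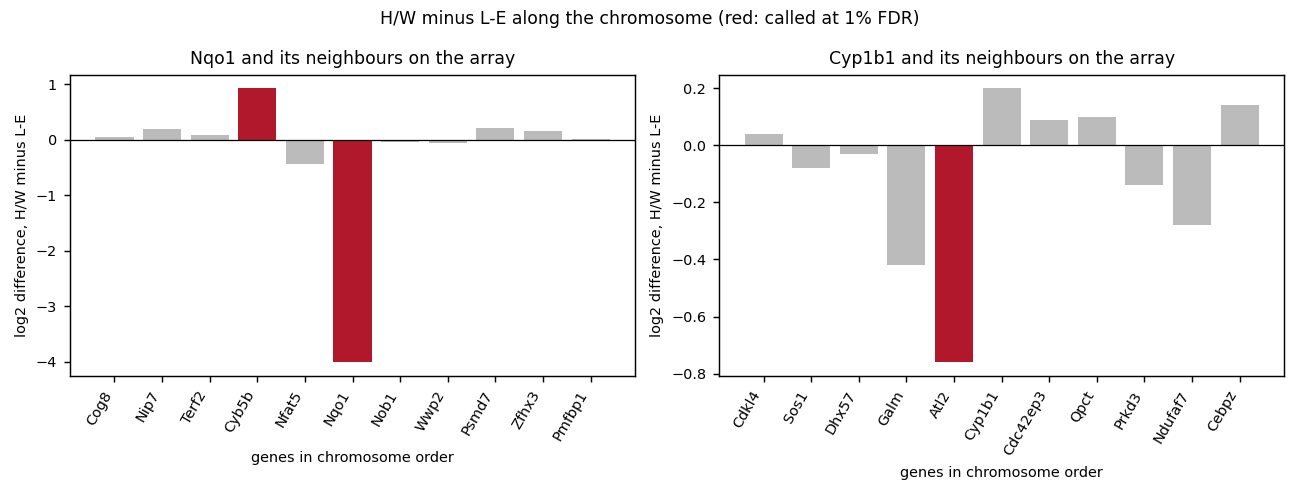
Log2 difference, H/W minus L-E, for Nqo1 and Cyp1b1 and the 5 genes on each side that are on the array, in chromosome order and 1 ProbeSet per gene, red where called at 1% FDR. Nqo1 (-4.01) and Cyb5b (0.93), in opposite directions, are the only calls on the left, and beside Cyp1b1, itself not called, Atl2 (-0.76) is called.

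Genes that work with the receptor were described from a list of 24 partners, chaperones and coregulators, of which 20 were on the array and 19 ProbeSets were expressed. The F-test called 3 of the 19, where 9.47% of expressed ProbeSets were called. These were Hsp90ab1, Hif1a and Ncor1. Hsp90ab1, the HSP90 of the resting AHR complex, was at 10.91 ± 0.17 in Line-A, 11.46 ± 0.23 in H/W, 10.93 ± 0.11 in Line-C, 11.84 ± 0.14 in L-E and 11.23 ± 0.13 in S-D by the ProbeSet 1375335_at. It was lower in both lines than in L-E, by -0.93 in Line-A (adjusted p = 5.04e-05) and -0.91 in Line-C (9.30e-05), and lower than in H/W by -0.55 in Line-A (0.00542). By its other ProbeSet, 1375336_at, the difference of Line-A from L-E was -0.46 (adjusted p = 0.0102), and only L-E minus S-D was called (0.56, 0.00261).

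Hif1a, which like AHR pairs with ARNT, was higher in Line-A, at 9.43 ± 0.13, than in H/W at 8.89 ± 0.10 (0.54, adjusted p = 1.82e-04) and L-E at 8.90 ± 0.06 (0.53, 1.36e-04). Line-C, at 9.28, was also called higher, with H/W minus Line-C at -0.39 (adjusted p = 0.0037) and Line-C minus L-E at 0.39 (0.00238). The lines shared a scan day apart from their parents. The other ProbeSet of Hif1a was under the limit. Epas1, another ARNT partner, was lower in Line-A and in Line-C than in L-E (-0.73 and -0.69, adjusted p = 0.00156 and 0.00324) by 1 ProbeSet with a mean of 6.23. By its brighter ProbeSet, with a mean of 11.34, these differences were -0.12 and -0.13 (0.273 and 0.266) and were not called, so the ProbeSets disagree. Ncor1, a corepressor, was lower in Line-A than in S-D by -1.29 (adjusted p = 1.02e-05) by 1 of its ProbeSets, while the other had -0.57 (0.0562). Between H/W and L-E 0 of the 19 ProbeSets were called by limma (2.72% of expressed ProbeSets). Of the 19, 4 had an unadjusted p under 0.05, a level whose share over all ProbeSets is not given here. The list's median difference was -0.08, against 0.01 over all expressed ProbeSets. Arnt2 lay under the limit with both ProbeSets (means 2.17 and 3.03).

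A second list held 15 further AHR-inducible genes, of which 5 ProbeSets were expressed. By limma's F-test at 0.1% FDR 0 of these 5 were called, where 9.47% of expressed ProbeSets were. All 5 had an unadjusted p under 0.05, a level whose share over all ProbeSets is not given here. Xdh alone was called against S-D, in all 4 pairs, from 0.63 for L-E (adjusted p = 0.00593) to 0.76 for Line-C (0.00161). Ugdh, which makes UDP-glucuronic acid for conjugation, was higher in Line-A than in L-E by 0.59 (adjusted p = 0.00542). Aldh3a1, a classic AHR target, was under the limit with a mean of 3.18.

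The third list held 23 genes around NRF2, with 19 expressed ProbeSets. Of these the F-test called 4, where 9.47% of expressed ProbeSets were called. They were Akr7a3, Taldo1, Hmox1 and Ephx1. Between H/W and L-E, where Nqo1 was lower in H/W, 1 of the 19 was called (2.72% of expressed ProbeSets) and the median was 0.15. That 1 was Hmox1, haem oxygenase, at 5.06 ± 0.45 in H/W and 7.16 ± 0.39 in L-E (-2.09, adjusted p = 1.35e-04). Unlike Nqo1, Hmox1 was lower in both lines too, by -1.50 in Line-A (adjusted p = 0.00117) and -1.71 in Line-C (6.53e-04) against L-E. Between L-E and S-D, where Nqo1 was higher in L-E, 3 of the 19 were called, all lower in L-E (9.91% of expressed ProbeSets in either direction). They were Akr7a3, an aflatoxin aldehyde reductase, at -2.57 (adjusted p = 1.34e-05), Ephx1, microsomal epoxide hydrolase, at -1.32 (0.00104), and Gclm, of glutathione synthesis, at -1.26 (0.00277). Taldo1, of the pentose phosphate pathway, was higher in Line-A than in H/W by 0.93 (adjusted p = 2.09e-04).

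The fourth list held 13 genes that supply P450 enzymes with electrons and haem, with 13 expressed ProbeSets. Of these the F-test called the 2 of Cyb5b, where 9.47% of expressed ProbeSets were called. Por, the P450 reductase, was at 6.31 ± 0.59 in Line-A and 8.61 ± 0.69 in H/W (difference -2.30, adjusted p = 0.00235), and by its second ProbeSet at 7.99 ± 0.30 and 9.72 ± 0.68 (-1.74, 0.00257). Both ProbeSets of Por missed the F-test at 0.1% FDR (adjusted p = 0.00416 and 0.0061). Alas1, the first enzyme of haem synthesis, was higher in Line-A than in S-D by 1.14 (adjusted p = 0.00309). Urod, of the same pathway, was higher in Line-A and Line-C than in L-E by 0.43 and 0.42 (adjusted p = 0.00272 and 0.0041).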

How the data were processed

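Liver RNA of 20 rats was hybridised to Affymetrix RAE230A arrays. The log2 signals used here were deposited by the authors, who made them with GC-RMA (background correction by GC content, a common distribution over arrays, 1 value per ProbeSet). Their processing notes name R 2.6.1, affy 1.12.0 and GCRMA 2.10.0. No further scaling was applied, and precision rests on 4 arrays per group. The array header files gave scan day, chip lot and operator only. ProbeSets were named through the platform annotation with symbols updated by Entrez ID.

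limma 3.58.1 (R 4.3.3, statmod 1.5.0) was used. The moderated F-test at 0.1% FDR, the 10 pairs at 1% and the Ahr coefficient at 5% follow the study's methods, and the interaction contrast, at 5%, was added here, each with Benjamini-Hochberg adjustment over all 15923 ProbeSets. Lines took a share of 0.5 from either parent. The steps were tested on simulated data. Named were all member ProbeSets, up to 4 called genes per list and pair, the 5 neighbours on each side and the 3 most similar ProbeSets. Parp1, Rb1, Keap1, Pgrmc1 and Ppox were called too and are not described. The members and lists were chosen with earlier results of these data known. Alternatives were limma's trend, array weights, quantile normalization, equal medians, expressed ProbeSets only, replicate and scan-day blocks, other thresholds, 2-group fits and leaving out each array. Gene order came from the current rat annotation, whose coordinates were used for the promoters only.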

Additional observations from a re-analysis of the deposited data

Results flagged for a closer look

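In 6 of 40 sets of 4 rats, 1 for each ProbeSet and group, 1 rat lay apart by Dixon's ratio of gap to range (at its 95% level). Chance gives about 1 in 20 such sets. Nqo1 was at 6.71 in H/W replicate 2, with the other H/W rats at 5.0 to 5.11. Tiparp was at 5.06 in Line-C replicate 4 (others 5.62 to 5.65) and at 5.19 in L-E replicate 4 (others 5.59 to 5.67). Cyp1b1 was at 3.53 in Line-A replicate 4, above 3.33 to 3.35. Ahr by 1369146_a_at was at 2.91 in Line-A replicate 2 (others 2.67 to 2.70) and 2.76 in S-D replicate 4 (others 2.62 to 2.63). These Ahr and Cyp1b1 signals are under the expression limit.

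For Nqo1 the differences H/W minus L-E, between whole strains, and Line-A minus Line-C differed by -3.96 (limma adjusted p = 0.0488). This call was lost in 15 of the 20 fits that left out 1 array, and with further quantile normalization (0.0534), equal array medians (0.0552) and scan day as a random block (0.0516).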

How the results depend on the processing

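Over 20 single-gene results, among them each called pair, none changed direction in the alternatives run. The F-test called 3 of the 8 ProbeSets, against 1 with the replicate block and 0 with scan day as a random block. Of the 14 pair calls, 8 stood with scan day as a random block and 6 with each pair fitted on its 2 groups only. The Ahr coefficient called 0, and 1 (Tiparp) with scan day as a random block. The interaction called 1, against 3 with array weights (Arnt, Cyp1b1 and Nqo1) and 0 with further quantile normalization, equal array medians or scan day as a random block. Leaving out each array in turn gave 1 to 2 F-test calls, 9 to 15 pair calls, 0 Ahr coefficient calls and 0 to 1 interaction calls. With 1 array less the F-test called Cyp1a2 in every fit, and lost Nqo1 or Arnt in each. The cause of these changes was not tested.

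The replicate numbers are shared across groups but do not pair rats: of 40 correlations of same-numbered arrays' deviations 6 were above 0.1 (range -0.34 to 0.22). The replicate block left 12 pair calls, 0 Ahr coefficient calls and 1 interaction call. The signal of Ahr, Arnt, Cyp1b1 and most Cyp1a1 arrays under the limit of 4 bounds what these arrays can show. All alternatives were planned.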
